A study of Mus musculus with 12 samples.

Results

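Oligodendrocyte lineage transcription factors were examined as a set of 9 genes, Olig1, Olig2, Nkx2-2, Nkx6-2, Sox10, Sox8, Myrf, Zfp488 and Tcf7l2, out of the 54838 genes counted in the spinal cord of control and Tet1 mutant mice. They were chosen by name, for their known part in the lineage, and each symbol matched 1 Ensembl gene. All 9 passed the filter on low counts that left 31109 genes to test.

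These genes encode DNA-binding proteins that act in sequence as a neural progenitor becomes an oligodendrocyte, the cell that wraps axons in myelin. OLIG2 and its neighbour OLIG1 are basic helix-loop-helix proteins, of which OLIG2 specifies the lineage and OLIG1 acts later, including in myelin repair. NKX2-2 and NKX6-2 are homeodomain proteins, the former linked to the exit from the progenitor state and the latter to maturing, myelinating cells. SOX10 and its relative SOX8 are HMG-box proteins present from the progenitor to the mature cell, SOX10 turns on Myrf, and MYRF in turn drives the genes of myelin. ZFP488 is a zinc finger partner of OLIG2, and TCF7L2 is an effector of Wnt signalling that marks cells as they begin to differentiate.

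RNA was sequenced from the spinal cord of P60 mice in 4 groups of 3 libraries. Controls were Olig1+/+;Tet1fl/fl (labelled wildtype) and mutants were Olig1cre/+;Tet1fl/fl (labelled Tet1 cKO), so that the floxed Tet1 alleles were common to all mice and the cre, inserted at the Olig1 locus, was carried by the mutants alone. Recombination deletes 1 exon of Tet1 and leaves a truncated product without catalytic activity. In each genotype, tissue was taken 4 days post lesion (4dpl), after lysolecithin (LPC, a detergent-like lipid that strips myelin where it is injected) had been given on one side of the cord, and from the unlesioned opposite side. Cells were enriched for oligodendroglia on a Percoll density gradient and were not sorted. The cre removes Tet1 in cells with a history of Olig1 expression, and the mutants also carry the cre allele in place of 1 Olig1 allele, so that the effect of either on a member cannot be told apart by genotype. In bulk RNA of this kind, fewer cells of a type and less RNA per cell cannot be told apart. Which libraries came from which mice is not given in the sources used here, so the p-values measure the spread between libraries, which may in part be technical.

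Total counts were between 34805086 and 67251544 per library, so that counting error was small beside the spread between libraries. Levels are given as CPM, counts scaled to a common library size after TMM correction for differences in RNA composition, and, where genes are compared with each other, as RPKM, the same per kilobase of exon. Tet1 was counted in all 12 libraries, at 14.9 to 18.3 CPM in the control and 9.94 to 16.4 CPM in the mutant unlesioned libraries, and at 11.7 to 12.5 and 10.9 to 21.5 CPM at 4dpl. The gene-level count includes exons outside the floxed part and cells without cre, so the genotype is taken from the labels. Markers of oligodendrocytes were abundant, with 16 myelin genes summing to between 15447 and 75312 CPM, and 10 markers of microglia and macrophages summed to between 14139 and 33175 CPM, so the preparation held both.

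Per length, Olig1 was the most abundant factor in every group. In control unlesioned cord its mean was 121 RPKM (SD 31.3, n = 3), followed by Nkx6-2 at 59.3 RPKM (SD 4.90), Sox10 at 43.2 (SD 4.91), Sox8 at 18.0 (SD 1.25), Myrf at 14.4 (SD 1.38) and Olig2 at 7.10 (SD 0.940). The ranges of these 6 did not overlap between neighbours in the order. Nkx2-2, Zfp488 and Tcf7l2 lay lowest, with means of 2.21, 1.76 and 1.72 RPKM and overlapping ranges. At 4dpl in the control the order of Nkx6-2 and Sox10 was exchanged, with Sox10 at 53.7 RPKM (SD 3.08) above Nkx6-2 at 35.1 (SD 3.02), and Olig2, at 3.26 RPKM (SD 0.851), overlapped Nkx2-2, Zfp488 and Tcf7l2. In both mutant groups the order by mean began with Olig1, Nkx6-2, Sox10, Sox8, Myrf and Olig2, but nearly all neighbours overlapped.

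Olig1 and Olig2 lie next to each other on chromosome 16 of GRCm38, Olig1 from 91269772 to 91271933 and Olig2 from 91225457 to 91228677, both on the plus strand. Of the other members, Sox10 lies on chromosome 15 (79154908 to 79165240), Sox8 on chromosome 17 (25565892 to 25570686), Nkx2-2 on chromosome 2 (147177546 to 147194243), Nkx6-2 on chromosome 7 (139579376 to 139582797), Zfp488 on chromosome 14 (33967070 to 33978764), and Myrf (10208272 to 10240748) and Tcf7l2 (55741810 to 55933654) on chromosome 19. Exons of 4 members share bases with a gene on the opposite strand, 157 bases of Olig1 with Gm15966, 329 of Sox8 with 2810468N07Rik, 278 of Nkx2-2 with Nkx2-2os and 246 of Nkx6-2 with Inpp5a. Whether strand was used in counting is not given in the sources used here, and reads from those bases cannot be assigned to one gene of a pair.

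TET1 oxidises methylated cytosine, which in mammals stands mainly in CG dinucleotides, and promoters differ in how many they hold. Of the 9 genes, 6 had a promoter of 300 bases (250 before the start and 50 after) in the RefSeq table of GRCm38.p6. The 4 printed here, 5′ to 3′ with every CG in capitals, are chosen from these 6. Olig2 and Nkx6-2 are the 2 with a promoter in the table, out of 4 members in all, whose level relative to Sox10 was lower at 4dpl in the control, as described further on. Sox8 and Nkx2-2 are shown beside them as family members of Sox10 and Nkx6-2 whose level relative to Sox10 overlapped, as did those of Zfp488 and Tcf7l2.
Olig2, chr16:91225300-91225599, plus strand: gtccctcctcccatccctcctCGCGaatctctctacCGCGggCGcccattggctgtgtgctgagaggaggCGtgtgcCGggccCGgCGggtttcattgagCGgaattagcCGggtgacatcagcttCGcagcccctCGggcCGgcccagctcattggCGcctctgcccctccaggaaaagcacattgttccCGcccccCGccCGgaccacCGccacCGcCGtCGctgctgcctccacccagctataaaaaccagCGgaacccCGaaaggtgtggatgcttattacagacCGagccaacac
Nkx6-2, chr7:139582748-139583047, minus strand: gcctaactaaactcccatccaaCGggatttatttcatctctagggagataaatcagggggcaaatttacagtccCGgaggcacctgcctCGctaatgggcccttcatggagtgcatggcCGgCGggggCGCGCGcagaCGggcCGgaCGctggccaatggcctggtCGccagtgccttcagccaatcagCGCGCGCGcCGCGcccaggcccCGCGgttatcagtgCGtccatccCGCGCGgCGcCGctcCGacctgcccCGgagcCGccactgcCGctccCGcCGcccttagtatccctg
Sox8, chr17:25570637-25570936, minus strand: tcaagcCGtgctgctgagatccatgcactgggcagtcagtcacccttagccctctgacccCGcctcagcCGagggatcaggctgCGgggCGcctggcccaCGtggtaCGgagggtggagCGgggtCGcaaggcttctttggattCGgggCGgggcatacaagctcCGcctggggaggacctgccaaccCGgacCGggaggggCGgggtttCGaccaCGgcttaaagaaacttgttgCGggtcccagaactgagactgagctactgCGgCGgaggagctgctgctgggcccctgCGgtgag
Nkx2-2, chr2:147186353-147186652, minus strand: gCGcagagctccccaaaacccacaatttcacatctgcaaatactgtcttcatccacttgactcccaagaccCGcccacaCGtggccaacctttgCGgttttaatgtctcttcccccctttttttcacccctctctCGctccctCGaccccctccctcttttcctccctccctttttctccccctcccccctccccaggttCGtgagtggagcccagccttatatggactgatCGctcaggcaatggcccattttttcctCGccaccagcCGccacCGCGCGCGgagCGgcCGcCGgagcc
They held 25, 32, 21 and 17 CG dinucleotides, against a median of 7 over 32851 promoters of the same length, of which 94.6% held at least 1. Zfp488 held 16 and the 2 promoters of Tcf7l2 held 34 and 7. Each of the 4 exceeded the median of all promoters, and cytosine modification was not measured in these libraries.

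In the control, Olig2, Nkx6-2 and Olig1 lay lower at 4dpl than in unlesioned cord in every library, and Sox10 and Sox8 lay higher. Olig2 was at 20.7, 17.0 and 16.2 CPM in the unlesioned libraries and at 5.77, 9.41 and 9.58 CPM at 4dpl, a mean log2 difference of -1.12 (SE 0.50). Nkx6-2 was at 111, 123 and 105 CPM unlesioned and at 61.0, 72.5 and 67.6 CPM at 4dpl, a log2 difference of -0.76 (SE 0.41). For both genes all 3 libraries at 4dpl lay below all 3 unlesioned libraries. Olig1 was at 338, 234 and 211 CPM unlesioned and at 188, 201 and 199 CPM at 4dpl, again with no overlap but with a smaller log2 difference of -0.41 (SE 0.45). Sox10, by contrast, was at 146, 132 and 116 CPM unlesioned and at 174, 157 and 160.2 CPM at 4dpl, which was higher in every library (log2 difference 0.31, SE 0.41), a direction that turned to -0.0077 when libraries were scaled by their size alone. Sox8 was also higher in every library, at 59.2, 57.3 and 51.7 CPM unlesioned and 65.5, 65.6 and 81.4 CPM at 4dpl (log2 difference 0.34, SE 0.38).

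None of these differences passed the test. By the quasi-likelihood test of edgeR, with p-values adjusted over all genes by Benjamini-Hochberg, 0 of the 9 members were called in the control lesion comparison, in which 10.1% of all genes were called (5.12% higher and 5.01% lower), and the smallest adjusted p-value was that of Olig2 (0.133). A call needed a p-value under 0.01 and an adjusted p-value under 0.05. The share of all genes called moved with single libraries. It was 0.0030% without control unlesioned replicate 2 and 21.8% without control unlesioned replicate 1, with 0 members called in each. At an unadjusted p-value under 0.05 there was 1 member, Olig2, against 34.0% of all genes. DESeq2 and limma voom each called 0 members, where they called 14.6% and 31.1% of all genes. The 3 members with lower, non-overlapping ranges stand against 21.4% of all genes in that direction, and the 2 with higher ranges against 16.5%. The remaining 4 overlapped. Myrf was at 134, 125 and 110.5 CPM unlesioned and at 136, 139 and 112 CPM at 4dpl (log2 difference 0.07, SE 0.39). Nkx2-2, Zfp488 and Tcf7l2 had log2 differences of 0.48 (SE 0.44), 0.54 (SE 0.39) and 0.30 (SE 0.31). The median log2 difference over the 9 was 0.30. That over all genes tested was -0.36, but over the 13582 genes with a mean log2 CPM of at least 1, which include all 9 members, it was 0.33, and 71.1% of these genes were higher at 4dpl. The members' median was thus above that of all genes and slightly below that of genes of comparable level. That comparison is by level alone. Among these genes the median was 0.44 in the decile of lowest transcript GC percentage and 0.13 in the highest. The highest decile holds Olig1, Olig2, Sox10, Nkx6-2 and Myrf.

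The calls for Olig2 and Nkx6-2 depended on which libraries set the spread. With the 6 control libraries fitted alone both were called, Olig2 with a log2 difference of -1.19 (edgeR quasi-likelihood test, Benjamini-Hochberg adjusted p = 0.0444) and Nkx6-2 with -0.83 (adjusted p = 0.0486 in the same test), where 4.52% of all genes were called. When the 2 mutant libraries described further on were left out together, a choice made after the data were seen, both were called again (adjusted p = 0.0273 and 0.0447 by the Benjamini-Hochberg adjusted edgeR test), among 10.7% of all genes.

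**Figure D1:**
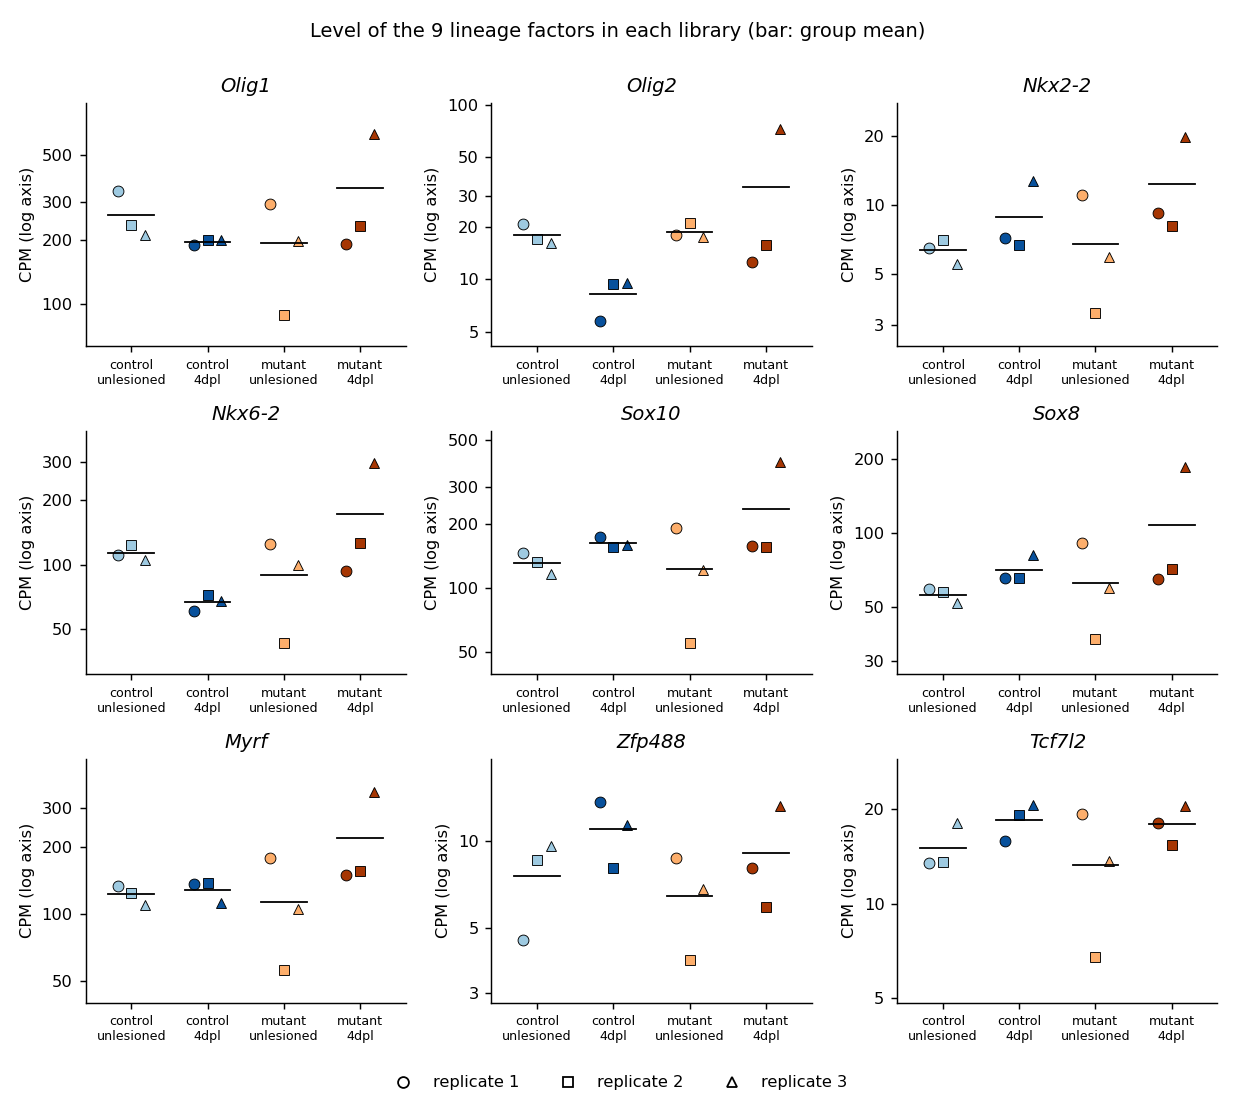
Level of each of the 9 factors in every library, as CPM on log axes whose range differs between panels; marker shape gives the replicate and the bar the group mean (n = 3). Olig2, Nkx6-2 and Olig1 lay lower at 4dpl in the control, and mutant 4dpl replicate 3 was the highest of the 12 libraries for 7 of the 9 genes.

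**Figure D2:**
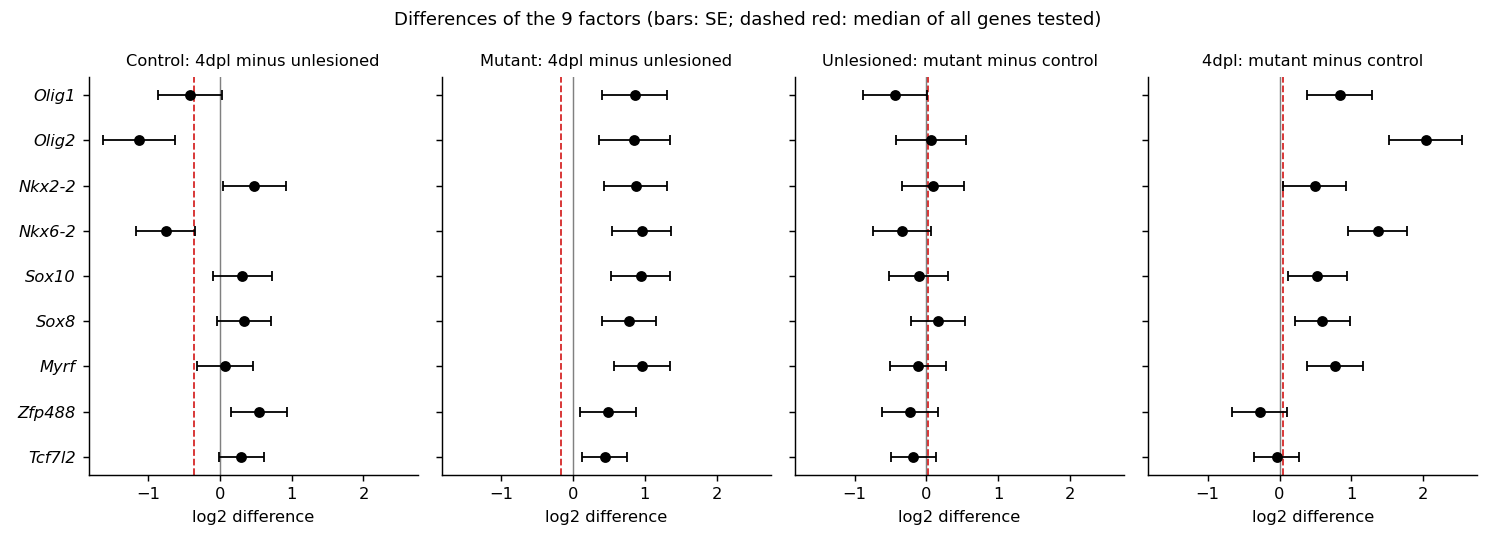
Log2 difference of each factor in 4 comparisons, with bars of 1 SE from the fit to all 12 libraries and a dashed line at the median of all 31109 genes tested, low-count genes included (in the genes with a mean log2 CPM of at least 1 the median was 0.33 in the first panel and 0.47 in the second). Olig2 and Nkx6-2 lay lowest in the control lesion comparison and highest between the genotypes at 4dpl, and none of the 9 was called in any panel.

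In the libraries labelled mutant, 2 libraries stood apart in the level of nearly all members. In mutant unlesioned replicate 2 Sox10 was at 54.9 CPM, against 116 to 191 in the other unlesioned libraries of both genotypes. In mutant 4dpl replicate 3 Sox10 was at 391 CPM, against 157 to 174 in the other libraries at 4dpl. Summed over the 9 factors, the level was 111 RPKM in the former and 716 RPKM in the latter, and between 223 and 329 RPKM in the other 10 libraries. The myelin genes moved with the factors, summing to 15447 CPM in the former, the lowest of all libraries, and to 75312 CPM in the latter, the highest, with between 18670 and 36694 CPM in the others. Ependymal markers (8 genes) summed to 279 CPM in mutant unlesioned replicate 2 and to between 38.1 and 161 CPM elsewhere. In mutant 4dpl replicate 3, 10 microglia and macrophage markers summed to 19787 CPM, the lowest value at 4dpl, and 10 astrocyte markers to 1145 CPM, the highest of all libraries. No list had a gene at 0 in every library of a group, and the part of these other cells in the members' levels was not tested.

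Olig2 was the exception in mutant unlesioned replicate 2. There it was at 20.9 CPM, the highest unlesioned value of either genotype, while the other 8 members were at their lowest of the 12 libraries. The ratio of Olig2 to Sox10 in this library was 0.381, and between 0.0937 and 0.145 in the other unlesioned libraries.

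**Figure D3:**
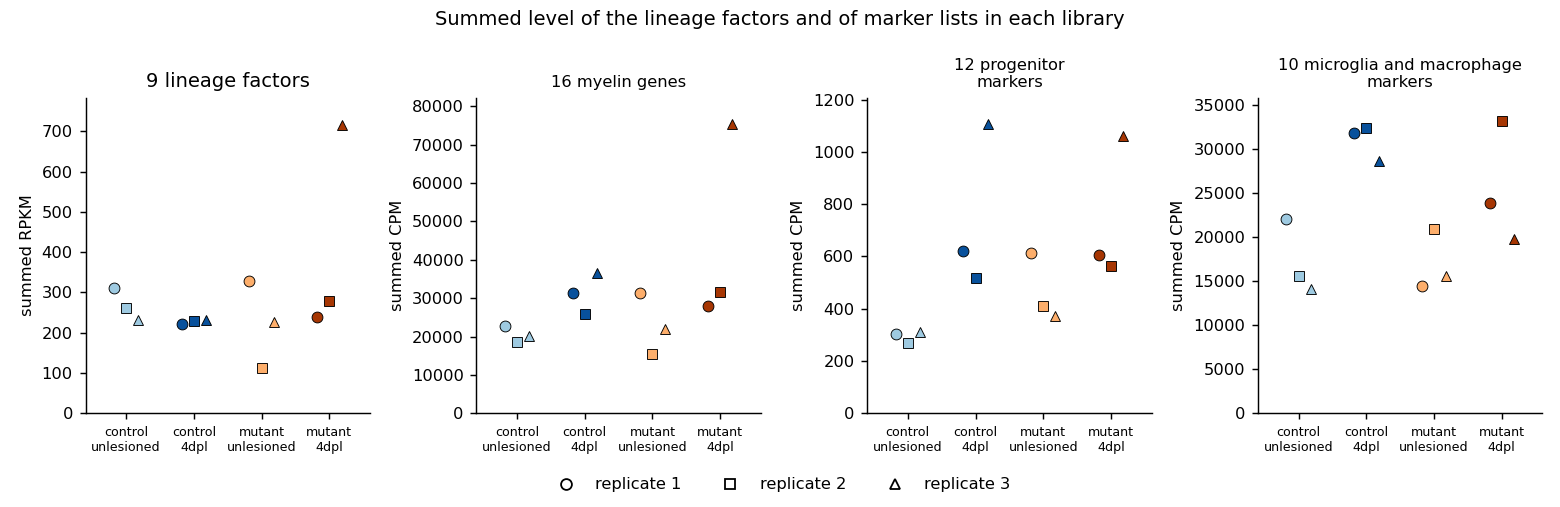
Sum over the 9 factors (RPKM) and over the markers of myelin, progenitors and microglia or macrophages (CPM) in each library, on linear axes from 0, with marker shape giving the replicate. Mutant 4dpl replicate 3 had the highest sum of the factors (716) and of the myelin genes (75312), and mutant unlesioned replicate 2 the lowest of both.

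After lesion in the mutant, all 9 members had a log2 difference above 0, with wide ranges. Olig1 was at 293, 88.7 and 197 CPM unlesioned and at 192, 233 and 623 CPM at 4dpl (log2 difference 0.86, SE 0.45). Olig2 was at 17.9, 20.9 and 17.6 CPM unlesioned and at 12.5, 15.8 and 73.1 CPM at 4dpl (log2 difference 0.85, SE 0.50). Nkx6-2 was at 124, 43.2 and 100.3 CPM unlesioned and at 93.4, 126 and 299 CPM at 4dpl (log2 difference 0.95, SE 0.41). In each of these genes the groups overlapped, and replicate 3 at 4dpl was the highest library. Sox10 was at 191, 54.9 and 121 CPM unlesioned and at 159, 157 and 391 CPM at 4dpl (log2 difference 0.94, SE 0.41). Myrf, the driver of myelin genes, was at 179, 56.0 and 105 CPM unlesioned and at 150.1, 157 and 356 CPM at 4dpl (log2 difference 0.96, SE 0.39). The remaining 4 members had log2 differences between 0.44 (Tcf7l2, SE 0.31) and 0.87 (Nkx2-2, SE 0.44), and no member's ranges were apart, where 18.8% of all genes had higher and 23.2% lower ranges.

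By the Benjamini-Hochberg adjusted edgeR test, 0 of the 9 were called in the mutant lesion comparison (0.135% of all genes were, 0.0225% higher and 0.113% lower), the smallest adjusted p-value being that of Myrf (0.113). At an unadjusted p-value under 0.05 there were 3, Myrf, Nkx6-2 and Sox10, against 33.8% of all genes. DESeq2 and limma voom called 0 members, where they called 10.4% and 21.9% of all genes. The low share of 0.135% thus belongs to the main test. The median log2 difference over the 9 was 0.86, against -0.18 over all genes and 0.47 over the 13582 genes with a mean log2 CPM of at least 1, of which 83.0% were higher at 4dpl. Leaving out mutant unlesioned replicate 1 made 2 calls, Sox10 and Myrf, among 10.2% of all genes. Leaving out mutant 4dpl replicate 3 turned the difference of Olig2 to -0.38 and lowered that of Sox10 to 0.39 and that of Myrf to 0.46. Without both libraries that stood apart, the differences of Olig1, Olig2, Sox8, Nkx6-2 and Zfp488 were below 0.

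Over both genotypes together, the average of the lesion differences was largest for Nkx2-2 (log2 difference 0.68, SE 0.31) and Sox10 (0.63, SE 0.29). Sox8, Zfp488 and Myrf followed with 0.56 (SE 0.27), 0.52 (SE 0.27) and 0.52 (SE 0.28), and Tcf7l2 with 0.37 (SE 0.22). Olig1 (0.22, SE 0.32), Nkx6-2 (0.10, SE 0.29) and Olig2 (-0.14, SE 0.35) were closest to 0. The Benjamini-Hochberg adjusted edgeR test called 0 of the 9 and 32.8% of all genes, the smallest adjusted p-value of a member being 0.0900 for Nkx2-2. At an unadjusted p-value under 0.05 there were 2 members, Nkx2-2 and Sox10, where 52.0% of all genes were. DESeq2 and limma voom called 0 members, where they called 27.1% and 46.4% of all genes. Without mutant unlesioned replicate 1 the calls were 3 (Sox10, Nkx2-2 and Myrf, with 32.3% of all genes), and without mutant 4dpl replicate 3 the 1 member called was Olig2, with a log2 difference of -0.74, where 26.6% of all genes were. Without both libraries that stood apart Olig2 was again the 1 member called (-0.71), among 22.5% of all genes. At an adjusted p-value under 0.10, with no limit on the unadjusted p-value, the calls were Sox10 and Nkx2-2, where 52.6% of all genes passed.

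Between the genotypes in unlesioned cord the 9 factors overlapped without exception, where 4.09% of all genes had higher and 6.28% lower ranges in the mutant. Olig1, which the mutants carry with 1 allele disrupted by cre, was at 338, 234 and 211 CPM in the control and at 293, 88.7 and 197 CPM in the mutant (log2 difference -0.44, SE 0.45). Without mutant unlesioned replicate 2 its difference was -0.09, and without mutant unlesioned replicate 1 it was -0.88. The other members had log2 differences between -0.34 (Nkx6-2, SE 0.41) and 0.16 (Sox8, SE 0.38). The Benjamini-Hochberg adjusted edgeR test called 0 of the 9 and 0% of all genes. At an unadjusted p-value under 0.05 there were 0 members, against 5.22% of all genes. DESeq2 and limma voom called 0 members, where they called 0.0628% and 0% of all genes.

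At 4dpl, Olig2, Nkx6-2 and Myrf were higher in every library labelled mutant than in every control library. The control libraries are those of the control lesion comparison, so the 2 comparisons are not independent. Olig2 was at 5.77, 9.41 and 9.58 CPM in the control and at 12.5, 15.8 and 73.1 CPM in the mutant (log2 difference 2.04, SE 0.51). Nkx6-2 was at 61.0, 72.5 and 67.6 CPM in the control and at 93.4, 126 and 299 CPM in the mutant (log2 difference 1.37, SE 0.41). Myrf was at 136, 139 and 112 CPM in the control and at 150.1, 157 and 356 CPM in the mutant (log2 difference 0.78, SE 0.39). In these 3 genes the groups did not overlap, as in 7.34% of all genes in that direction (5.44% in the other). The other members overlapped, with log2 differences of 0.84 (SE 0.45) for Olig1, 0.52 (SE 0.41) for Sox10, 0.60 (SE 0.38) for Sox8, 0.49 (SE 0.43) for Nkx2-2, -0.28 (SE 0.39) for Zfp488 and -0.04 (SE 0.31) for Tcf7l2.

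The Benjamini-Hochberg adjusted edgeR test called 0 of the 9 at 4dpl and 0% of all genes, with an adjusted p-value of 0.274 for Olig2 and 0.380 for Nkx6-2. These were the 2 members with an unadjusted p-value under 0.05, where 6.92% of all genes had one. DESeq2 called 1 member, Olig2 (log2 difference 1.99, adjusted p = 0.0189), among 0.428% of all genes, and limma voom called 0, where it called 0.109% of all genes. The size rested on 1 library, since without mutant 4dpl replicate 3 the log2 difference of Olig2 was 0.78 (adjusted p = 0.785 by the Benjamini-Hochberg adjusted edgeR test). Without this library those of Nkx6-2, Myrf and Olig1 were 0.71, 0.25 and 0.12, and those of Sox10, Sox8 and Nkx2-2 were -0.06, -0.06 and -0.03.

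The difference between the genotypes in the lesion difference, tested as an interaction, was 1.97 on the log2 scale (SE 0.70) for Olig2 and 1.71 (SE 0.58) for Nkx6-2, the only 2 members with an unadjusted p-value under 0.05 (3.81% of all genes). Olig1 had 1.27 (SE 0.63) and the others lay between -0.06 (Zfp488) and 0.89 (Myrf). By the Benjamini-Hochberg adjusted edgeR test 0 of the 9 and 0% of all genes were called, and DESeq2 and limma voom called 0 members and 0% of all genes. Without mutant 4dpl replicate 3 the interaction was 0.72 for Olig2 and 1.05 for Nkx6-2.

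A ratio between 2 genes of the same library does not depend on how libraries are scaled, and Sox10 was taken as the reference for the lineage. In the control, the ratio of Olig2 to Sox10 was between 0.129 and 0.141 in unlesioned cord and between 0.0331 and 0.0601 at 4dpl. The ratio of Nkx6-2 to Sox10 was between 0.760 and 0.931 unlesioned and between 0.350 and 0.463 at 4dpl. Those of Olig1 (1.77 to 2.31 and 1.08 to 1.28) and Myrf (0.915 to 0.949 and 0.701 to 0.885) to Sox10 were also lower at 4dpl without overlap, while those of Sox8, Nkx2-2, Zfp488 and Tcf7l2 overlapped. In this comparison 28.8% of all genes had a ratio to Sox10 that was lower without overlap, against these 4 of 8 members. A ratio that was higher was held by 7.93% of all genes and 0 members. The 4 ratios share Sox10 as denominator and are not separate results. The log2 difference of Sox10 itself was 0.31 on the TMM scale. That of Myrf was 0.07 with overlapping ranges, so its lower ratio did not come from a lower level of Myrf.

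In the mutant the same ratios overlapped between unlesioned cord and 4dpl. Nkx6-2 to Sox10 was between 0.651 and 0.829 unlesioned and between 0.589 and 0.805 at 4dpl. Olig2 to Sox10 was between 0.0937 and 0.381 unlesioned and between 0.0791 and 0.187 at 4dpl. Sox8 was the 1 member of 8 whose ratio was apart, from between 0.476 and 0.676 unlesioned to between 0.411 and 0.474 at 4dpl, where 28.0% of all genes were lower. At 4dpl the ratios of Olig2, Nkx6-2 and Myrf to Sox10 were above those of the control in every library, as were those of 2.32% of all genes, and that of Zfp488 was below (0.0337 to 0.0510 against 0.0514 to 0.0783), as were those of 7.27%. Myrf to Sox10 was at least 0.910 in each mutant library at 4dpl and at most 0.885 in the control. In mutant 4dpl replicate 3, the library with the highest level of the factors, the ratio of Nkx6-2 to Sox10 was 0.765 and that of Myrf to Sox10 was 0.910, both inside or beside the values of the other 2 mutant libraries, whereas that of Olig2 was 0.187, above both. Between the genotypes in unlesioned cord the ratio of Olig1 was lower (1.53 to 1.63) and that of Sox8 higher in the mutant without overlap, where 0.614% and 2.82% of all genes were.

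**Figure D4:**
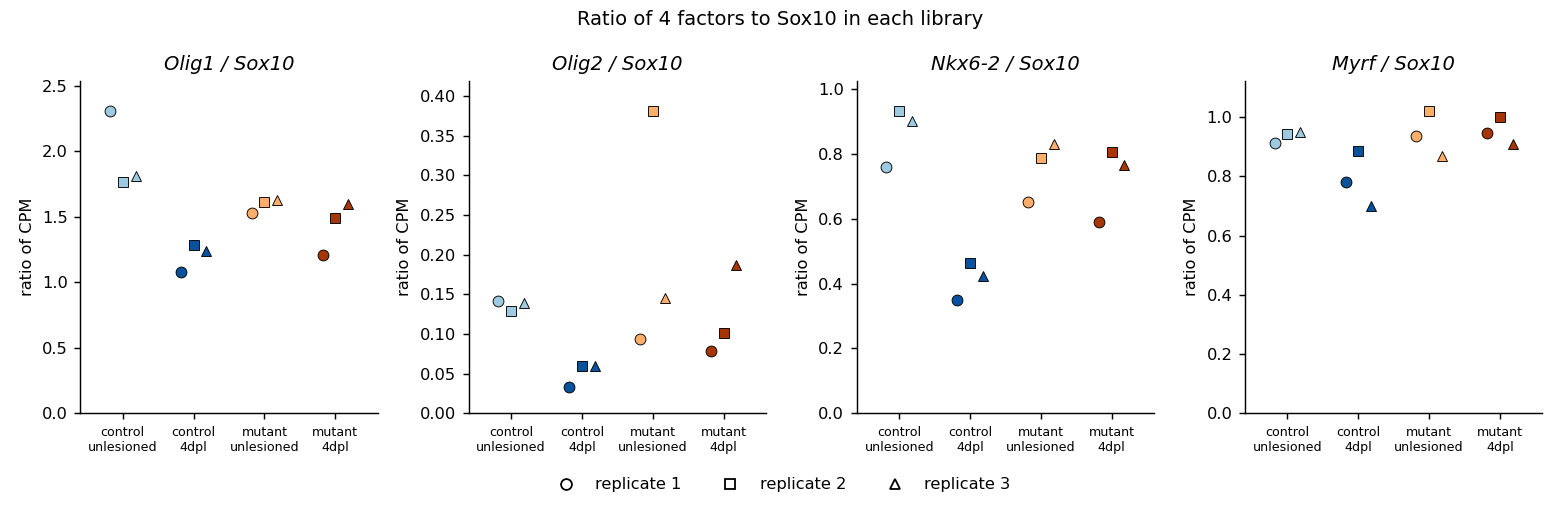
Ratio of the CPM of Olig1, Olig2, Nkx6-2 and Myrf to that of Sox10 in each library, on linear axes from 0, with marker shape giving the replicate. In the control each ratio lay lower at 4dpl than in unlesioned cord, and in the mutant the 2 conditions overlapped, with Olig2 in mutant unlesioned replicate 2 (0.381) far above the rest.

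Because the cre allele sits in Olig1, the ratio of Olig1 to its neighbour Olig2 was compared between genotypes. It was between 13.0 and 16.3 in control unlesioned libraries, between 20.8 and 32.6 in the control at 4dpl, between 4.24 and 16.4 in mutant unlesioned libraries and between 8.52 and 15.3 in the mutant at 4dpl. The mean of the log2 ratio was lower in the mutant by a difference of -0.80 (exact permutation test within condition, two-sided, p = 0.025, where 0.005 is the smallest possible). It was -0.64 in unlesioned cord (exact permutation test, p = 0.5) and -0.97 at 4dpl (exact permutation test, p = 0.1, the smallest that 3 libraries against 3 allow). These p-values take the unlesioned and 4dpl libraries as independent. When same-numbered libraries of a genotype were moved together, a choice made after the data were seen, the p-value of the exact permutation test for -0.80 was 0.1, the smallest that 20 relabellings allow, so this test could not reach 0.05. With Sox10 in place of Olig2 the difference was -0.29 in unlesioned cord (exact permutation test, p = 0.1, the smallest possible) and 0.25 at 4dpl (exact permutation test, p = 0.3), which are opposite in sign and average to -0.02 (exact permutation test, p = 0.895). Leaving out single libraries gave pooled differences of Olig1 to Olig2 between -1.01 and -0.52. Their p-values lay between 0.005 and 0.075 in the exact test that takes libraries as independent. The p-value was 0.05 or above without control unlesioned replicate 1, 2 or 3, control 4dpl replicate 1 or mutant unlesioned replicate 2. In unlesioned cord alone the difference was -0.08 without mutant unlesioned replicate 2 and -1.05 without mutant unlesioned replicate 1. At 4dpl it stayed between -1.12 and -0.70.

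Relative to the myelin genes, a scale added after the data were seen on which each library was set to the geometric mean of 16 myelin genes, Sox10 and Myrf differed little in any comparison, by between -0.18 and 0.14 on the log2 scale. On this scale Olig2 had a lesion difference of -1.28 (SE 0.48) in the control and of -0.69 (SE 0.47) in the mutant, and of -0.98 (SE 0.34) over both genotypes. The last was called by the Benjamini-Hochberg adjusted edgeR test (adjusted p = 0.0326), as were 27.2% of all genes, whose median on this scale was -0.89. The call was kept in 3 of 12 fits that left out 1 library, those without mutant unlesioned replicate 1, mutant unlesioned replicate 3 or mutant 4dpl replicate 3, and lost in the rest, where the adjusted p-value of the same edgeR test reached 0.0999 without mutant unlesioned replicate 2. The mutant lesion difference of Olig2 on this scale was -0.06 without mutant unlesioned replicate 2 and -1.12 without mutant 4dpl replicate 3. Nkx6-2 had -0.92 (SE 0.37) in the control and -0.08 (SE 0.37) in the mutant on this scale, and was not called. The other members lay between -0.46 (Zfp488, SE 0.45) and 0.01 (Myrf, SE 0.38) in the mutant lesion comparison. Myrf alone was above 0 there, and the median of all genes was -1.20.

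Members differed in how alike their levels were over the 12 libraries, measured as the root mean square difference of log2 CPM after each gene was centred on its own mean. Sox10 and Myrf were the most alike pair (0.14), and Sox8 with Nkx2-2 and Sox10 with Sox8 followed at 0.21. Olig2 was the least like the others, with values of at least 0.57, the value with Nkx6-2, and it was at 0.70 from its neighbour Olig1. These values are descriptions over 12 libraries that share groups and composition.

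Likeness to all genes was measured in the same way over 13581 genes whose mean log2 CPM reached 1. Those nearest to Sox10 were Amph (0.09), Cnp (0.11), an enzyme of myelin, and Gnao1 (0.11). Nearest to Myrf were Wscd1 (0.08), Aatk (0.09) and Mapk8ip1 (0.10). Olig1 was nearest to Hapln2 (0.16), a linker of matrix at the node of Ranvier, Hid1 (0.17) and Prima1 (0.18), and Nkx6-2 to Gnai1 (0.17), Nkd1 (0.18) and Shisa4 (0.20). Sox8 was nearest to Porcn (0.10), Ppp2r2c (0.11) and Tubb2b (0.13), and Nkx2-2 to Prox1 (0.20), Tubb2b (0.21) and Sox8 (0.21). The nearest genes of Olig2 were farther away, Fzd9 and Chadl at 0.26 and 0.27 and Dexi at 0.28. For Zfp488 they were Nicn1 (0.22), Ephx1 (0.23) and Zfyve21 (0.25), and for Tcf7l2 they were Tcf4 (0.14), Nav1 (0.14) and Ago3 (0.15). The median over all genes compared lay between 0.50 and 0.97, depending on the member.

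Other regulators of the lineage were counted in the lesion comparison over both genotypes, in which 14.2% of all genes were called higher and 18.6% lower. Of 18 regulators of the progenitor stage, 17 were tested, 3 were called higher and 0 lower, with a median log2 difference of -0.23. These were Id2, an inhibitor of basic helix-loop-helix factors (0.78, SE 0.17), Etv5, an ETS factor (1.19, SE 0.27), and Myc (0.80, SE 0.18), all called by the Benjamini-Hochberg adjusted edgeR test (adjusted p = 0.00610, 0.00683 and 0.00635). In the control, Id2 was at 113 ± 19.7 CPM unlesioned and 247 ± 44.7 CPM at 4dpl (SD, n = 3). The mutant values were 128 ± 24.3 and 173 ± 25.9 CPM. Sox4, a progenitor-stage SOX factor, was called lower in the control lesion comparison (log2 difference -1.56, SE 0.32), where it was at 15.2 ± 0.22 CPM unlesioned and 5.18 ± 0.91 CPM at 4dpl (SD, n = 3), and was not called over both genotypes (-0.58, SE 0.22). Of 20 other regulators of differentiation, 6 were called higher and 0 lower, with a median of 0.45. Those with the smallest p-values were the histone deacetylase gene Hdac2 (0.60, SE 0.15), Zeb2 (0.83, SE 0.23), which promotes myelination, and Tcf12, a partner of OLIG proteins (0.63, SE 0.18).

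Relatives of the members by sequence gave 0 genes called higher and 1 lower out of 8 tested of 9, with a median of -0.30. The 1 was Myrfl, a paralog of Myrf, at under 1.15 CPM in every library (log2 difference -2.04, SE 0.64). Nkx6-3 (-1.54, SE 0.53) and Tcf7l1 (-0.78, SE 0.32) had the next smallest p-values and were not called.

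Markers of lineage cells were counted in the same way. Of 12 progenitor markers 5 were called higher over both genotypes (median log2 difference 0.68), among them Cspg4 (1.49, SE 0.32), which encodes NG2, Bcas1 (1.27, SE 0.30), found in newly forming oligodendrocytes, and Pdgfra (0.92, SE 0.23), the receptor for a progenitor mitogen. The other two were Lhfpl3 (1.18, SE 0.31) and Gpr17 (1.22, SE 0.37), a receptor of committed progenitors. The average over genotypes was made up unequally. All 5 were called in the control lesion comparison, with log2 differences from 1.65 (Bcas1) to 2.26 (Gpr17), where 10.1% of all genes were called. In the mutant 0 of the 12 markers were called, but only 0.135% of all genes were. The count of 0 thus does not set these markers apart from other genes. The 5 ranged from 0.13 (Pdgfra) to 1.01 (Cspg4) in the mutant. The medians over the 12 were 1.01 in the control and 0.19 in the mutant. In the test of the difference between the genotypes (interaction) 0 of the 12 and 0% of all genes were called. Pdgfra (-1.57, SE 0.47) and Gpr17 (-2.08, SE 0.74) had unadjusted p-values of 0.00452 and 0.0138 and adjusted p-values of 0.999907 in the Benjamini-Hochberg adjusted edgeR test. Of 16 myelin genes 2 were called higher and 0 lower (median 0.56), Mobp (1.16, SE 0.28) and Mbp (1.16, SE 0.32), which encode structural myelin proteins, while Trf, the transferrin gene, was not called (0.77, SE 0.27). In the control alone, Mobp was called higher (1.33, SE 0.40). Beside these changes, 8 of 10 microglia and macrophage markers were called higher over both genotypes (median 1.04), and their sum was 14139 to 22082 CPM in unlesioned and 28704 to 32362 CPM in lesioned control libraries, with mutant ranges of 14475 to 20985 and 19787 to 33175 CPM. Of the other marker lists, 2 of 10 astrocyte markers were called higher, 1 of 10 neuron markers lower, 1 of 10 endothelial and mural markers higher, 1 of 9 Schwann cell markers tested higher and 3 lower, 4 of 8 fibroblast and meningeal markers higher and 2 lower, and 0 of 8 ependymal markers. The part of these cells in the members' values was not tested. The 1 endothelial and mural marker called was Cspg4 (1.49), which is also counted among the progenitor markers. That call therefore does not tell these cell types apart.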

How the data were processed

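RNA of 12 oligodendroglial-enriched spinal cord preparations was sequenced, 3 in each of 4 groups. Per the study's methods the authors aligned reads to mm10 with BWA, whereas the submitters' processing notes name STAR. They counted uniquely aligned reads on exons of Ensembl GRCm38 genes with featureCounts and deposited the raw counts, which are not normalized. Of 54838 genes 54723 had a symbol, and all 37 mitochondrial genes had a count of 0.

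The analysis used edgeR 4.0.16 in R 4.3.3 (filterByExpr, TMM, glmQLFit and glmQLFTest, with a mean per group over all 12 libraries). Calls needed a p-value under 0.01 and a Benjamini-Hochberg adjusted p-value under 0.05 over the 31109 genes kept. RPKM was computed from TMM-scaled CPM and the exon length in the files. The fits were tested on simulated data. Alternatives were DESeq2 1.42.0, limma 3.58.1 with voom and sample weights, edgeR's newer quasi-likelihood option, fits to the groups compared only, RLE factors, no TMM factor, other filters, an adjusted p-value under 0.10, replicate blocks and each library left out. Leaving out both libraries that stood apart, scaling to the myelin genes, and moving same-numbered libraries together in the ratio test were added after the data were seen. The members, lists and tests were chosen with earlier results of these data known. The genes named are the members, Tet1, from each list of lineage regulators or lineage markers the 3 with the smallest p-values over both genotypes plus all genes called in any comparison where these were 5 or fewer (1 such gene is not reported here), and the 3 nearest to each member.

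Same-numbered control libraries deviated together from their group means, with correlations across genes of 0.32, 0.22 and 0.31 by the label number. Differently numbered control pairs had correlations between -0.28 and -0.026. Deviations from a group mean cancel within the group, so these correlations are not independent of each other. Whether same-numbered libraries came from the same mouse was not tested. In the mutant the same-numbered correlations were 0.20, 0.32 and 0.066. Differently numbered mutant pairs lay between -0.43 and 0.23, so the label number did not set the same-numbered pairs apart there.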

Additional observations from a re-analysis of the deposited data

How the results depend on the processing

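None of the 9 members was called in the 6 comparisons, and most alternatives left the number of calls at 0. The exceptions in the control lesion comparison were 2 members (Olig2 and Nkx6-2) with the groups compared only and the same 2 without both libraries that stood apart. Over both genotypes they were 2 at an adjusted p-value under 0.10, with no limit on the unadjusted p-value, and 1 without both libraries. Between the genotypes at 4dpl there was 1 with DESeq2. Relative to the myelin genes, leaving out both libraries gave 2 calls in the control and 2 over both genotypes, Olig2 and Nkx6-2 in each, where 5.64% and 19.0% of all genes were called. Leaving out single libraries gave 0 to 1 members called in the control lesion comparison (Olig2, without mutant 4dpl replicate 3, where 10.2% of all genes were called), 0 to 2 in the mutant, 0 to 3 over both genotypes, 0 to 1 over both genotypes relative to the myelin genes, and 0 in the other comparisons. The log2 ratio of Olig1 to Olig2 differed by between -1.01 and -0.52 when single libraries were left out, and taking Sox10 as the reference gave -0.021, the average of -0.29 in unlesioned cord and 0.25 at 4dpl.

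Signs of uncalled log2 differences turned under these settings, and the cause was not tested. With library size only, which moved the median of all genes in the control lesion comparison from -0.36 to -0.70, they were Sox10 (-0.0077), Myrf (-0.26) and Tcf7l2 (-0.066) in the control lesion comparison, Tcf7l2 (-0.045) in the mutant lesion comparison, Olig1 (-0.17), Nkx6-2 (-0.32) and Tcf7l2 (-0.055) in the lesion comparison over both genotypes and Sox10 (0.050) and Myrf (0.034) in the comparison of genotypes in unlesioned cord. With the groups compared only they were Myrf (-0.0029) in the control lesion comparison. With at least 10 counts in every library they were Myrf (-0.20) in the control lesion comparison and Olig1 (-0.049) and Nkx6-2 (-0.19) in the lesion comparison over both genotypes. Without both libraries that stood apart they were Olig1 (-0.19), Olig2 (-0.31), Sox8 (-0.13), Nkx6-2 (-0.024) and Zfp488 (-0.14) in the mutant lesion comparison, Olig1 (-0.30) and Nkx6-2 (-0.38) in the lesion comparison over both genotypes, Olig2 (-0.016), Sox10 (0.25), Myrf (0.21), Zfp488 (0.046) and Tcf7l2 (0.14) in the comparison of genotypes in unlesioned cord, Sox10 (-0.056), Sox8 (-0.055) and Nkx2-2 (-0.032) in the comparison of genotypes at 4dpl and Sox10 (-0.30), Sox8 (-0.48), Nkx2-2 (-0.45) and Tcf7l2 (-0.28) in the interaction. With voom and sample weights they were Nkx6-2 (-0.12) in the lesion comparison over both genotypes and Nkx2-2 (-0.085) in the comparison of genotypes in unlesioned cord. Without both and relative to the myelin genes they were Zfp488 (0.050) and Tcf7l2 (0.024) in the lesion comparison over both genotypes, Olig2 (-0.14), Sox10 (0.063) and Myrf (0.018) in the comparison of genotypes in unlesioned cord and Olig1 (-0.0087) in the comparison of genotypes at 4dpl.

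Leaving out single libraries, members whose sign turned in at least 1 fit had these ranges. In the mutant lesion comparison they were Olig2 -0.38 to 1.27. In the lesion comparison over both genotypes they were Nkx6-2 -0.21 to 0.28, Olig1 -0.11 to 0.46 and Olig2 -0.74 to 0.087. In the comparison of genotypes in unlesioned cord they were Myrf -0.62 to 0.21, Nkx2-2 -0.46 to 0.42, Olig2 -0.016 to 0.18, Sox10 -0.59 to 0.25, Sox8 -0.22 to 0.43, Tcf7l2 -0.57 to 0.14 and Zfp488 -0.51 to 0.046. In the comparison of genotypes at 4dpl they were Nkx2-2 -0.033 to 0.76, Sox10 -0.057 to 0.75, Sox8 -0.056 to 0.86 and Tcf7l2 -0.15 to 0.061. In the interaction they were Nkx2-2 -0.13 to 0.95, Sox8 -0.21 to 0.82, Tcf7l2 -0.18 to 0.52 and Zfp488 -0.43 to 0.23. Relative to the myelin genes, the ranges were as follows. On that scale the control lesion comparison gave Nkx2-2 -0.052 to 0.47. On that scale the mutant lesion comparison gave Myrf -0.054 to 0.098, Nkx2-2 -0.20 to 0.053, Nkx6-2 -0.14 to 0.0069 and Sox10 -0.098 to 0.078. On that scale the lesion comparison over both genotypes gave Myrf -0.090 to 0.00037, Nkx2-2 -0.057 to 0.20, Tcf7l2 -0.27 to 0.036 and Zfp488 -0.19 to 0.057. On that scale the comparison of genotypes in unlesioned cord gave Myrf -0.11 to 0.034, Olig2 -0.14 to 0.78, Sox10 -0.11 to 0.063, Tcf7l2 -0.15 to 0.10 and Zfp488 -0.32 to 0.16. On that scale the comparison of genotypes at 4dpl gave Nkx2-2 -0.35 to 0.17 and Olig1 -0.0087 to 0.12.

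With the labels' replicate number entered as a block, 0 members were called in the control, in the mutant, over both genotypes and in the interaction. The shares of all genes called there were 12.4%, 0.0129%, 31.3% and 0%. With the study's own sample number as the block 0 members were called as well, where 3.22%, 0%, 17.0% and 0% of all genes were. The sign of Zfp488 (0.61) in the interaction turned. Pairs by that number had correlations of -0.15 and -0.026 in the control and 0.20 and -0.24 in the mutant. Genotype contrasts could not be fitted with a block that lies within genotype, and the fit to the groups compared only was not made for the interaction or the average. With the labels' number as a block in the ratio test, moving same-numbered libraries together, the difference for Olig1 to Olig2 was -0.80 (exact permutation test, p = 0.1, the smallest possible) and that for Olig1 to Sox10 was -0.021 (p = 0.9 in the same exact test). What limits the number of members called was not tested.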
